A study of Mus musculus with 8 samples.

Results

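The genes described here are 33 mouse genes of cholesterol and fatty acid synthesis, with the proteins that control them. They were chosen by name, with earlier results of these data known. Their probe sets are groups of short oligonucleotides read as 1 signal. All those were taken to which the platform annotation gives a listed gene and no other. This rule found 74 probe sets for 32 of the 33 genes, out of 18193 genes named alone by at least 1 probe set and 45101 probe sets in all. Acat2, the cytosolic thiolase that starts the sterol pathway, was named by none, so its signal was not analysed here and only the stretch before its start enters below. Total RNA was measured on 8 Affymetrix arrays, 4 labelled Exp and 4 labelled Ctrl. One label field names the trigeminal ganglion, which holds the sensory neurons of the face, while another names brain and adrenal medulla. The labels give no genotype, strain, treatment, time or age for either group, so it is not known here what the Exp group underwent or what both groups share. The arrays of a group are numbered 1 to 4 with no word on separate animals, so p-values here speak only of how far these arrays spread, which may in part be technical. The Y-linked gene Eif2s3y read 8.68, 13.37, 13.07 and 7.45 in Exp 1 to 4, against 13.46, 12.97, 7.13 and 12.32 in Ctrl 1 to 4, so the arrays of a group did not all measure 1 RNA.

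Cholesterol is built from acetyl-CoA by way of mevalonate, squalene and lanosterol, and fatty acids are built from the same precursor by way of malonyl-CoA. Both branches are controlled by the SREBP transcription factors, which stay in the endoplasmic reticulum with their escort SCAP while sterols are plentiful and move to the Golgi, and then to the nucleus, when sterols are short. INSIG proteins hold SCAP back. In peripheral nerve and ganglia these genes are best known in Schwann cells, whose myelin is rich in cholesterol and long fatty acids, while neurons also make sterols during growth.

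Levels are given as log2(signal + 16) after quantile normalization, so a difference of 1 is a doubling of signal + 16. The trimmed mean signal was 2500 on each array, the medians lay between 478 and 553, and the correlation between any pair of arrays over the tested probe sets was between 0.968 and 0.980. Of the 74 probe sets 67 passed the filter on low signals, those of all 32 genes among them. The other 7, which belong to Fdps, Fdft1, Acly, Elovl6 and Scap, lay under it, and each of these genes has another probe set that was tested. A gene is read by its brightest tested probe set, called its leading one, unless another is named. Whether a leading probe set also reads transcripts of other genes was not tested. Among marker genes, all 8 sensory neuron markers were tested, against 1 of 5 of brain glia (Aqp4, with Gfap, Mog, Mobp and Olig2 under the filter), 3 of 8 of the adrenal cortex (with Cyp11b1, Cyp11b2, Nr5a1 and Mc2r under it) and 1 of 7 of adipocytes. Of the chromaffin cell markers 5 of 7 were tested (Th, Pnmt, Chga, Chgb and Slc18a1). Dbh, at 8.83 ± 0.42 in Exp and 8.06 ± 0.43 in Ctrl (SD, n = 4 each), lay just under the filter of 8.45, which applies to the mean of all 8 arrays.

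Sterol and fatty acid synthesis genes had closely similar signals in the Exp and Ctrl arrays, and none of the 67 probe sets passed the 5% false discovery rate (limma, smallest adjusted p = 0.630). Over all 27022 tested probe sets 1 passed, or 0.00370%. With no adjustment, 2 of the 67 had p below 0.05 in limma, or 2.99%, against 4.69% of all probe sets. Both were higher in Exp, as were 2.18% of all probe sets at that p, and 0 were lower, against 2.50%. In the leading probe sets 22 of 32 genes were higher in Exp, or 68.8%, against 48.4% of all probe sets and 45.2% of the 12763 genes with a tested leading probe set. The members were chosen with earlier results of these data known, so these shares are not a test of the list. Scaling moves members and background together: 25 of the 32 were higher without quantile normalization, against 51.7% of all probe sets, and 18 of the 32 with arrays centred on their medians, against 39.5%. The median log2 fold change was 0.04, against -0.01 over all genes. For 31 of the 32 the 95% confidence interval of the difference lay within a doubling either way, as it did for 93.5% of all probe sets and 95.2% of all genes' leading ones, and for 25 of the 32, or 78.1%, it lay within 0.5 log2 units, against 54.1% of all probe sets and 63.9% of all genes' leading ones. The exception to the first count was Sc5d.

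**Figure D1:**
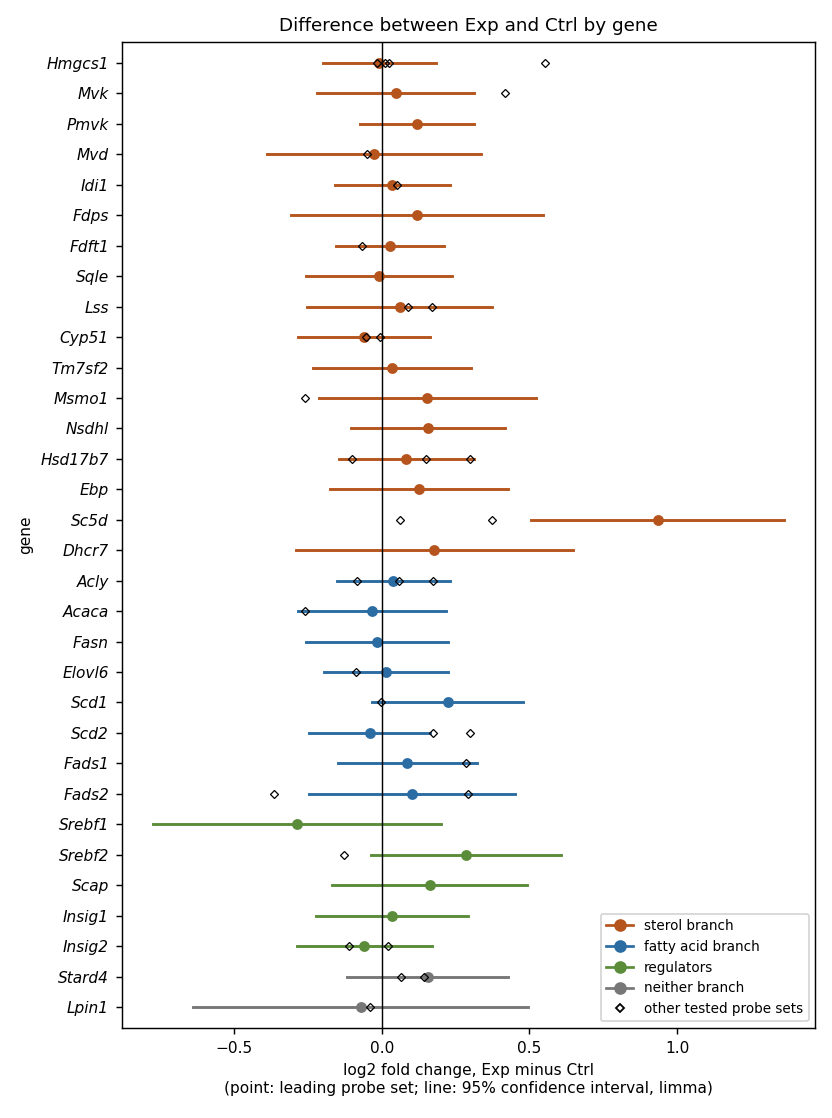
Log2 fold change, Exp minus Ctrl, of each gene's leading probe set (filled points, with 95% confidence intervals from limma) and of its other tested probe sets (open diamonds), coloured by role. Sc5d, at 0.93, is the only leading probe set whose interval leaves out 0, and its other probe sets lie at 0.06 and 0.37.

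The stretch before the gene start is shown for 4 members on which the results turn, namely Sc5d with the largest difference, Hmgcs1 at the head of the mevalonate pathway, the regulator Srebf2 and the fatty acid synthase gene Fasn. Each is the 250 bases before the start annotated by RefSeq in build GRCm38.p6, on the gene's own strand from 5′ to 3′. Capitals mark CCAAT, the box bound by the factor NF-Y, in either orientation, and TCACNCCAC, the core of the sterol regulatory element bound by SREBP. They lie at chr9:42264301-42264550 (minus strand) for Sc5d, chr13:119690101-119690350 (plus strand) for Hmgcs1, chr15:82147019-82147268 (plus strand) for Srebf2 and chr11:120824548-120824797 (minus strand) for Fasn.
Sc5d: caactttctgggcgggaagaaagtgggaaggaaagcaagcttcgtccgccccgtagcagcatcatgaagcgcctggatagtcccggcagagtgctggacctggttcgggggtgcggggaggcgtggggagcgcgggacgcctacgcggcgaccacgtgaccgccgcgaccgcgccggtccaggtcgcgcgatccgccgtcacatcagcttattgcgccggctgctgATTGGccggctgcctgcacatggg
Hmgcs1: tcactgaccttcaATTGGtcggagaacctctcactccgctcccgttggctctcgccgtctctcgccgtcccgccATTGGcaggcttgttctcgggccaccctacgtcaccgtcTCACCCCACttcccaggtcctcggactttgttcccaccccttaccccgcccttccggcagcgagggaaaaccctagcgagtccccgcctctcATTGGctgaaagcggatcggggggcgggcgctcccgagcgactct
Srebf2: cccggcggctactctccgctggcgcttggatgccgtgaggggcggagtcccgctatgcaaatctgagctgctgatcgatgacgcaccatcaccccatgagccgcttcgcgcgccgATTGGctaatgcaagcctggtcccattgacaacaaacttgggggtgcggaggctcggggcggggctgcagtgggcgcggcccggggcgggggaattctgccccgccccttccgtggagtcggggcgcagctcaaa
Fasn: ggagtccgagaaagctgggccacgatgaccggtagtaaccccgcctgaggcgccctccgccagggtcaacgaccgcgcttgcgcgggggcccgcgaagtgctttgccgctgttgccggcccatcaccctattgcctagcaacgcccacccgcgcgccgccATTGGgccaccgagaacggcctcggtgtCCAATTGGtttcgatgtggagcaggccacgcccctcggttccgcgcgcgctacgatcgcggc

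Windows of this length were searched on both strands for CCAAT, for TCACNCCAC and for GGGCGG, the GC box bound by Sp1. The table holds 34 windows for 26 members, since Dhcr7, Insig2, Pmvk, Scap and Srebf1 have several annotated starts, and some of these windows overlap. It holds none for Fdps, Fdft1 and Sqle of the sterol branch, Scd1, Scd2 and Fads1 of the fatty acid branch, and Stard4. CCAAT stood in 14 of 18 sterol branch windows, or 77.8%, against 33.8% of all 32851 windows and 34.8% of the windows of genes with a tested probe set. Every sterol branch gene with a window had at least 1 such match except Acat2, or 14 of 15 genes. Of all genes with a window 10133 of 27025 had one, and of genes with a tested probe set 4133 of 10291. In the fatty acid branch CCAAT stood in 1 of 5 windows, that of Fasn, where 2 of the 3 matches overlap each other. Among the regulators it stood in 5 of 10. GGGCGG stood in 83.3% of the sterol branch windows and 40% of the fatty acid windows, against 32.7% of all windows and 55.9% of those of tested genes. TCACNCCAC was found in 1 window, that of Hmgcs1 from 137 to 129 bases before the start, against 1.05% of all windows. Only these exact strings were searched, so elements that differ by a letter or lie outside the 250 bases were not counted. The lack of a match to TCACNCCAC does not show that a gene has no sterol regulatory element. A match describes the letters of the window and says nothing of binding.

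**Figure D2:**
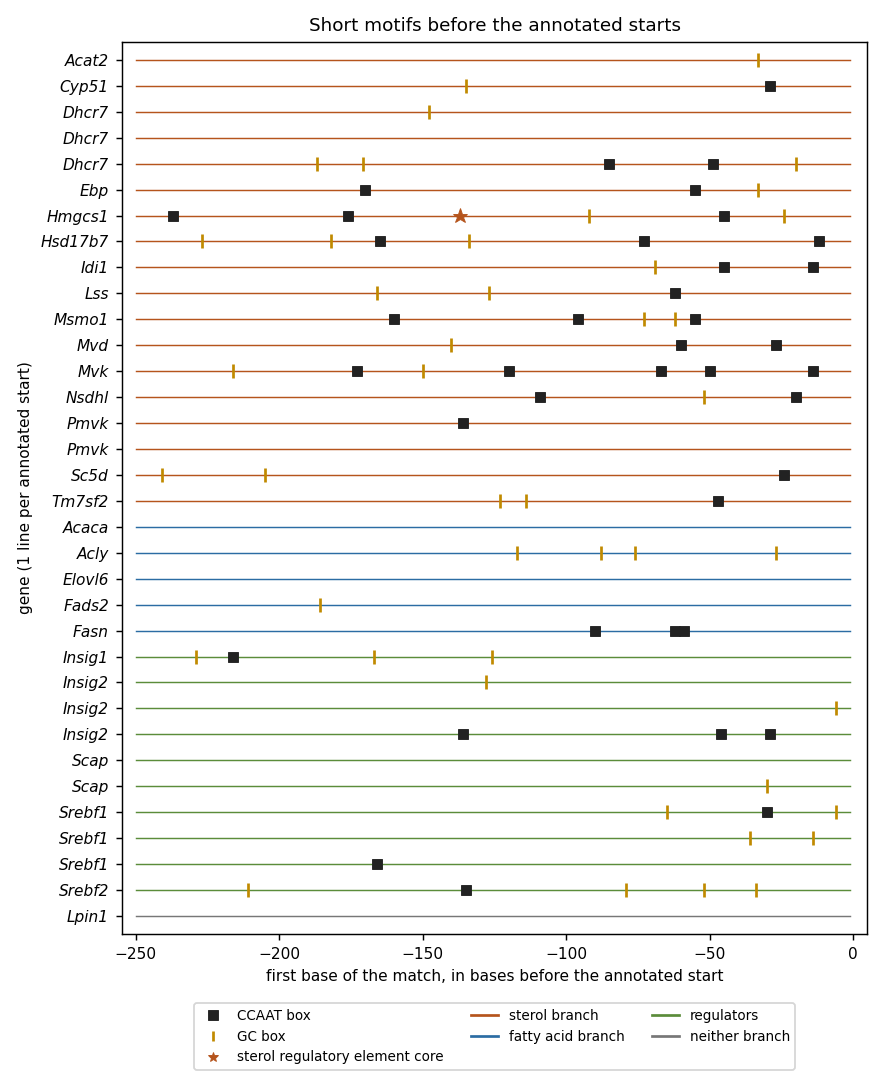
First base of each match to 3 short motifs in the 250 bases before each annotated start, 1 line per start, with lines coloured by role. Squares (CCAAT) stand in 14 of the 18 sterol branch lines and in 1 of the 5 fatty acid lines, and the star on the Hmgcs1 line is the TCACNCCAC form of the sterol regulatory element core.

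The first steps of the sterol branch make farnesyl diphosphate from acetyl-CoA, and their genes differed little between the groups. Hmgcs1, the synthase that makes HMG-CoA, had 17.00, 16.97, 17.05 and 17.10 in Exp, against 17.05, 17.00, 17.10 and 17.00 in Ctrl. The groups overlapped, with values that recur because quantile normalization gives the same few levels to the brightest ranks, and the log2 fold change was -0.01 (SE 0.08, 95% confidence interval -0.20 to 0.18). Of the other 4 probe sets of Hmgcs1, 3 differed by between -0.01 and 0.03. The last one, 1441536_at, had 10.25, 9.93, 9.58 and 9.44 in Exp, against 9.80, 9.00, 9.23 and 8.94 in Ctrl, which gave 0.55 on the log2 scale (SE 0.23; limma unadjusted p = 0.0423, adjusted p = 0.999). This dimmer probe set and the leading one of Sc5d are the 2 that fell below an unadjusted p of 0.05.

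Pmvk, the kinase that adds the second phosphate to mevalonate, had 14.05, 13.95, 14.02 and 14.09 in Exp, against 13.87, 13.86, 13.93 and 13.97 in Ctrl. Only Exp 2 lay within the range of the Ctrl arrays, and the difference was 0.12 (SE 0.09; limma adjusted p = 0.999). Mvk, the first kinase of mevalonate, differed by 0.05 (SE 0.12) in its leading probe set and by 0.42 (SE 0.23) in a dimmer one. Mvd, the decarboxylase that makes isopentenyl diphosphate, differed by -0.03 (SE 0.16), the isomerase gene Idi1 by 0.04 (SE 0.09) and the farnesyl diphosphate synthase gene Fdps by 0.12 (SE 0.19). For Fdps the Ctrl 2 array read 11.56, against 12.22 to 12.35 in the other Ctrl arrays and 11.95 to 12.37 in Exp.

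The steps from squalene to cholesterol held the largest difference among the members. Sc5d, the lathosterol oxidase that puts a double bond into the sterol ring shortly before cholesterol, had 12.59, 12.45, 12.19 and 12.56 in Exp, against 11.77, 11.87, 11.07 and 11.34 in Ctrl. The lowest Exp array, at 12.19, exceeded the highest Ctrl array, at 11.87, and the means were 12.45 ± 0.18 in Exp and 11.51 ± 0.37 in Ctrl (SD, n = 4 each). The log2 fold change was 0.93 (SE 0.19, 95% confidence interval 0.51 to 1.36), or 1.91-fold, and it did not pass the threshold (limma unadjusted p = 8.16e-04, adjusted p = 0.630). Its p ranked 35 among the 27022 probe sets. Groups that do not overlap were found in 1 of the 32 leading probe sets, or 3.13%, against 2.34% of all probe sets.

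The 3 probe sets of Sc5d gave unlike differences. The probe set 1451457_at had 10.97, 10.56, 11.26 and 11.35 in Exp, against 10.96, 10.87, 11.05 and 11.02 in Ctrl, a log2 fold change of 0.06 (SE 0.17, 95% confidence interval -0.32 to 0.44). Its Exp arrays spread on both sides of the Ctrl arrays. The third, 1424709_at, had 9.16, 9.23, 8.21 and 9.29 in Exp, against 8.57, 8.92, 8.81 and 8.10 in Ctrl, a log2 fold change of 0.37 (SE 0.27). In this one 3 Exp arrays lay above every Ctrl array, and Exp 3 lay below all but Ctrl 4. The leading probe set stood above 1451457_at by 1.62, 1.89, 0.93 and 1.21 log2 units in Exp 1 to 4, against 0.81, 1.01, 0.02 and 0.32 in Ctrl 1 to 4. This gap averaged 1.41 ± 0.42 in Exp and 0.54 ± 0.45 in Ctrl (SD, n = 4 each), with Exp 3 under Ctrl 2. The gap to 1424709_at averaged 3.48 ± 0.35 in Exp and 2.91 ± 0.45 in Ctrl, a smaller difference of 0.56. The mean of the 3 probe sets differed by 0.46.

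**Figure D3:**
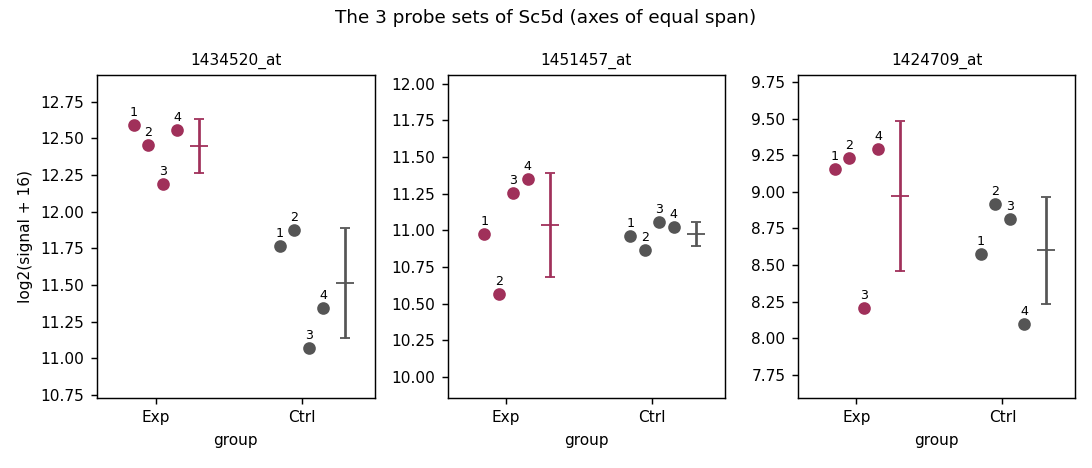
Log2(signal + 16) of the 3 probe sets of Sc5d on each array, with array numbers beside the points, group means and SD bars, and vertical axes of equal span. The groups are apart in 1434520_at and overlap in 1451457_at and 1424709_at.

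The other genes from squalene onwards differed by between -0.06 and 0.18 in their leading probe sets, and none passed. Nsdhl, a dehydrogenase that helps to remove the methyl groups of lanosterol, had 13.30, 13.12, 13.17 and 13.14 in Exp, against 12.80, 13.18, 13.17 and 12.95 in Ctrl, a log2 fold change of 0.16 (SE 0.12). Ctrl 1 and Ctrl 4 lay below every Exp array, and the other 2 Ctrl arrays lay among them. Ebp, the isomerase that shifts the ring double bond, had 12.40, 12.01, 12.25 and 12.28 in Exp, against 11.92, 12.03, 12.11 and 12.38 in Ctrl, a log2 fold change of 0.13 (SE 0.13). Its groups overlapped widely. Dhcr7, the reductase of the last step, differed by 0.18 (SE 0.21) with Ctrl 2 at 12.58 and the other arrays between 13.03 and 13.62, and Msmo1, the methylsterol oxidase, differed by 0.15 (SE 0.16). Fdft1, which makes squalene, differed by 0.03 (SE 0.08) in its leading probe set and by -0.07 (SE 0.11) in 1448130_at. The leading one had the smallest spread within groups of all members (pooled SD 0.02), against 0.13 in 1448130_at. The epoxidase gene Sqle differed by -0.01 (SE 0.11), the cyclase gene Lss by 0.06 (SE 0.14), the demethylase gene Cyp51 by -0.06 (SE 0.10), the sterol reductase gene Tm7sf2 by 0.03 (SE 0.12) and the ketoreductase gene Hsd17b7 by 0.08 (SE 0.10).

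All 8 fatty acid branch genes had confidence intervals within 0.5 log2 units either way in their leading probe sets. Some dimmer probe sets reached further, such as 1440444_at of Fads1 at 0.28 (interval -0.34 to 0.91) and 1427595_at of Acaca at -0.26 (interval -0.75 to 0.23). Scd1, a desaturase that puts the first double bond into saturated fatty acids, had 12.54, 12.26, 12.68 and 12.38 in Exp, against 12.23, 12.16, 12.29 and 12.28 in Ctrl. Only Exp 2 lay within the Ctrl range, and the log2 fold change was 0.22 (SE 0.11, 95% confidence interval -0.03 to 0.48; limma unadjusted p = 0.0795, adjusted p = 0.999). A dimmer probe set of Scd1, 1415965_at, differed by -0.0041 (SE 0.15). Fads1, a desaturase of polyunsaturated fatty acids, had 13.29, 13.23, 13.16 and 13.49 in Exp, against 13.30, 13.20, 13.12 and 13.20 in Ctrl, a log2 fold change of 0.09 (SE 0.10), with Exp 4 above all other arrays and the rest intermixed.

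Fads2, which carries out the first desaturation of the same fatty acids, had 12.58, 12.10, 11.99 and 12.24 in Exp, against 12.28, 12.02, 11.91 and 12.29 in Ctrl, a log2 fold change of 0.10 (SE 0.15). Its groups overlapped, and its other 2 probe sets differed by 0.29 (SE 0.19) and -0.36 (SE 0.20). Fasn, the synthase that builds palmitate, had 13.36, 13.63, 13.56 and 13.29 in Exp, against 13.51, 13.46, 13.41 and 13.51 in Ctrl, with the Ctrl arrays inside the span of the Exp arrays and a log2 fold change of -0.02 (SE 0.11). Acly, which makes cytosolic acetyl-CoA from citrate, differed by 0.04 (SE 0.08), Acaca, which makes malonyl-CoA, by -0.03 (SE 0.11), the elongase gene Elovl6 by 0.01 (SE 0.09) and the desaturase gene Scd2 by -0.04 (SE 0.09). The dimmer Scd2 probe set 1415824_at had 11.95, 11.96, 13.35 and 12.19 in Exp, against 11.75, 12.21, 12.78 and 12.00 in Ctrl, and its pooled SD of 0.57 was the largest of all tested member probe sets.

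The regulators did not pass either. Srebf2, the SREBP gene most tied to sterol synthesis, had 10.25, 10.41, 10.78 and 10.55 in Exp, against 10.22, 10.01, 10.20 and 10.43 in Ctrl, or 0.29 on the log2 scale (SE 0.14; limma unadjusted p = 0.0744, adjusted p = 0.999). Exp 3 and Exp 4 lay above every Ctrl array and the other 2 lay below Ctrl 4. Its second probe set, 1426744_at, went the other way, with 10.23, 9.81, 10.30 and 10.01 in Exp, against 9.94, 10.18, 10.33 and 10.41 in Ctrl, a log2 fold change of -0.13 (SE 0.15). Srebf1, whose product drives mostly fatty acid genes, had 10.83, 11.30, 11.39 and 10.54 in Exp, against 11.18, 11.05, 11.31 and 11.67 in Ctrl, a log2 fold change of -0.29 (SE 0.21). Exp 1 and Exp 4 were the 2 lowest of the 8 arrays and Ctrl 4 was the highest.

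Scap, the escort of the SREBPs, had 12.44, 12.40, 12.71 and 12.29 in Exp, against 12.59, 12.02, 12.34 and 12.25 in Ctrl, a log2 fold change of 0.16 (SE 0.14). Insig1 had 11.94, 11.85, 11.79 and 12.08 in Exp, against 12.07, 11.90, 11.86 and 11.70 in Ctrl, a log2 fold change of 0.03 (SE 0.11). Insig2 had 11.86, 11.82, 11.80 and 11.71 in Exp, against 11.68, 11.99, 11.85 and 11.91 in Ctrl, a log2 fold change of -0.06 (SE 0.10), and its other 2 probe sets differed by -0.11 and 0.02. The groups overlapped for all 3 of these genes. Stard4, a carrier of cholesterol between membranes, had 12.51, 12.63, 12.58 and 12.88 in Exp, against 12.29, 12.52, 12.65 and 12.52 in Ctrl, a log2 fold change of 0.16 (SE 0.12), and its 3 probe sets were all higher in Exp, by 0.06 to 0.16. Lpin1, a phosphatidate phosphatase of glycerolipid synthesis, had 10.36, 10.49, 10.63 and 9.65 in Exp, against 9.85, 10.29, 10.64 and 10.65 in Ctrl, a log2 fold change of -0.07 (SE 0.25) with the lowest value in Exp 4.

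**Figure D4:**
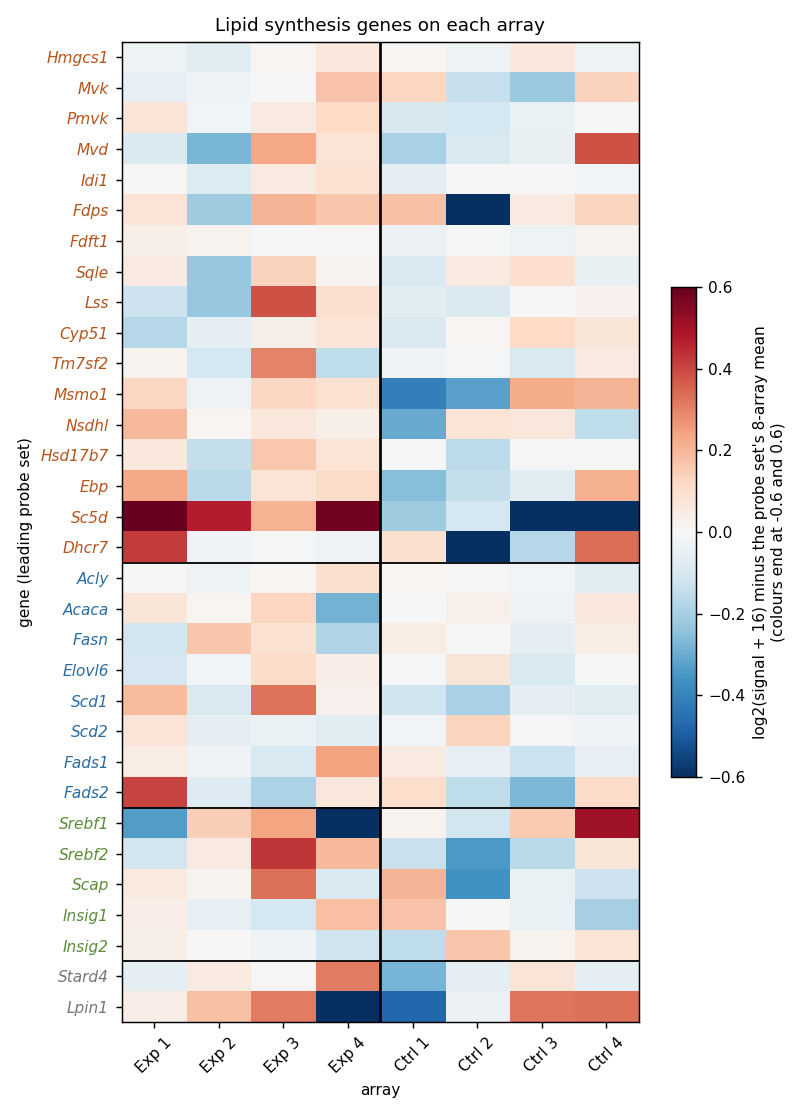
Deviation of each gene's leading probe set from its own 8-array mean, as log2(signal + 16), with Exp arrays on the left and Ctrl arrays on the right and gene names coloured by role (sterol, fatty acid, regulators, neither). Sc5d is the only row of one sign on each side, and Exp 3 holds the highest value of 10 of the 32 genes.

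Agreement between the probe sets of a gene was limited. Of the 21 members with more than 1 tested probe set, 11 had differences of both signs, and in 6 of them (Hmgcs1, Msmo1, Hsd17b7, Scd2, Fads2 and Srebf2) these lay more than 0.3 log2 units apart. Among the 6, every confidence interval included 0 except that of the dim Hmgcs1 probe set. The same count was not made over all genes, so it is not read as particular to these members.

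The sterol and fatty acid branches were then compared on each array, by the mean deviation of their genes' leading probe sets from their own 8-array means. For the 17 sterol branch genes it was 0.09, -0.07, 0.12 and 0.09 in Exp 1 to 4, against -0.08, -0.13, -0.06 and 0.04 in Ctrl 1 to 4. For the 8 fatty acid branch genes it was 0.07, -0.01, 0.04 and -0.01 in Exp, against 0.01, -0.02, -0.08 and -0.0004 in Ctrl. In both branches the groups overlapped, and in the sterol branch Exp 2 stood among the Ctrl arrays and Ctrl 4 above Exp 2. The sterol branch stood above the fatty acid branch by 0.01, -0.05, 0.07 and 0.10 in Exp, against -0.09, -0.11, 0.03 and 0.04 in Ctrl, means of 0.03 ± 0.07 in Exp and -0.03 ± 0.08 in Ctrl (SD, n = 4 each). The difference of 0.07 is about the size of the SD within each group, and without Sc5d it was 0.02, an alternative added after the data were seen.

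By gene, 13 of 17 sterol branch genes were higher in Exp with a median log2 fold change of 0.06, and 5 of 8 fatty acid branch genes with a median of 0.03, against -0.01 over all genes. With arrays centred on their medians these were 11 of 17 and 0.03, and 4 of 8 and -0.01, while the median of all probe sets moved to -0.042. Relative to that median the fatty acid branch stood at 0.033 and the sterol branch at 0.068 under both scalings. Within the sterol branch, the 11 genes from squalene onwards averaged 0.08 ± 0.08 in Exp and -0.08 ± 0.06 in Ctrl, with Exp 2 below Ctrl 4. Without Sc5d these means were 0.04 ± 0.10 in Exp and -0.04 ± 0.10 in Ctrl, so the difference of 0.15 became 0.08. The 6 mevalonate genes averaged 0.02 ± 0.10 in Exp and -0.02 ± 0.11 in Ctrl (SD, n = 4 each). Within the fatty acid branch the 4 desaturase genes averaged 0.05 ± 0.10 in Exp and -0.05 ± 0.06 in Ctrl, and the 4 genes of chain synthesis and elongation differed by 0.0014.

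**Figure D5:**
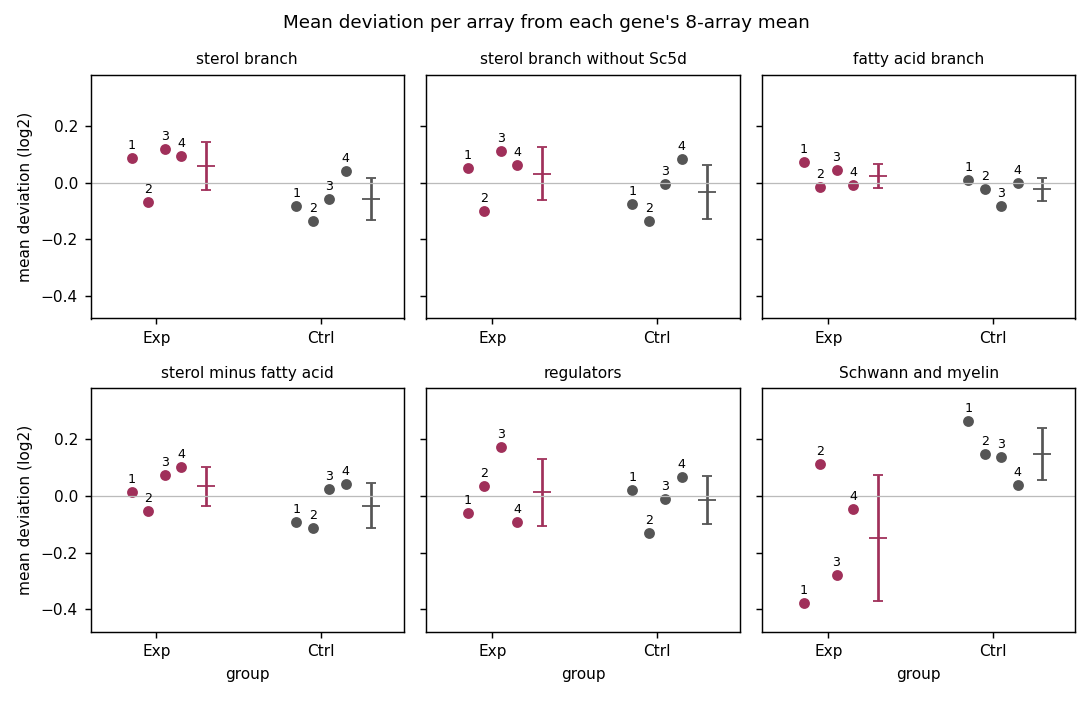
Mean deviation per array (log2) of the leading probe sets of each group of genes from their own 8-array means, with array numbers beside the points and group means with SD bars. Sterol and fatty acid groups overlap between Exp and Ctrl, and Schwann cell and myelin markers lie lower in Exp 1, Exp 3 and Exp 4 than in every Ctrl array.

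The arrays differed in how often they held the highest or lowest value of a sterol branch gene. Exp 2 held the lowest value of 5 of the 17 sterol genes and the highest of 0, while Exp 1 and Exp 3 each held the highest of 5. Ctrl 1 and Ctrl 2 each held the lowest of 4. These counts were not made over all genes, so they are not read as a trait of the sterol genes. With group means removed, the mean pairwise Pearson correlation of the 17 genes over the 8 arrays was 0.22, against -0.04 among the 8 fatty acid genes, 0.03 between the branches and 0.00 over all pairs of the 12763 genes. These correlations describe 8 arrays whose genes share each hybridisation. The value in the sterol branch was 0.10 without Exp 2 and between 0.20 and 0.25 without any other array.

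Markers of cell types that make or store lipid were set beside these values. All 7 tested Schwann cell and myelin markers of 13 listed were lower in Exp, with a median log2 fold change of -0.33, and their summed signal ran from 56713 to 78393 in Exp and from 74865 to 90077 in Ctrl. None of the 7 passed (limma, smallest adjusted p = 0.999), and 2 had an unadjusted p below 0.05, Plekhb1 at -0.53 (SE 0.16) and the glial transcription factor gene Sox10 at -0.33 (SE 0.14). Over all genes' leading probe sets 3.73% had such a p, and 6989 of 12763 were lower in Exp. In such bulk tissue, fewer cells of a type, less RNA per cell and spread between arrays cannot be told apart. The mean deviation of these markers was -0.38, 0.11, -0.28 and -0.05 in Exp 1 to 4, against 0.26, 0.15, 0.14 and 0.04 in Ctrl 1 to 4. Exp 2, lowest of the Exp arrays in the sterol branch, was thus highest in the Schwann list, and their part in the sterol values was not tested.

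Adipocyte markers were near the floor, with Adipoq, Cidec, Lep, Retn and Adig under the filter and Fabp4 alone tested, at a signal of 326 to 467 in Exp and 275 to 537 in Ctrl. The 3 tested adrenal cortex markers summed to between 1288 and 1936 in Exp and between 1255 and 1708 in Ctrl. Skeletal muscle markers, all 7 tested, summed to between 3709 and 65311 in Exp and between 6345 and 10335 in Ctrl. All 7 were higher in Exp, with a median log2 fold change of 0.77, and their groups overlapped. Actn2 alone, or 14.3%, had an unadjusted p below 0.05, at 1.32 (SE 0.58; limma unadjusted p = 0.0489, adjusted p = 0.999). The mean deviation of the muscle markers was highest in Exp 3 (2.34), the array that held the highest value of 10 of the 32 lipid synthesis genes. It was lowest in Exp 4 (-1.31), which held the highest value of 8 of the 32, while Exp 2 (0.80) held that of 1. The part of muscle in the lipid gene values was not tested, and such highest values were not counted over all genes. Of the 8 sensory neuron markers, 4 were higher and 4 lower in Exp. Uchl1 alone, or 12.5%, had an unadjusted p below 0.05, at -0.69 (SE 0.19; limma unadjusted p = 0.00615, adjusted p = 0.999). Over all genes' leading probe sets 3.73% had such a p. The groups of Uchl1 did not overlap, as in 2.25% of all genes' leading ones.

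Other genes of sterol handling were as close between the groups. Of 24 listed, 18 were tested, 9 were higher and 9 lower in Exp, 0 passed in limma, and 0 had an unadjusted p below 0.05 in their leading probe sets. Over all 33 tested probe sets of these genes 1 did, or 3.03%, against 4.69% of all probe sets. It was 1431385_a_at of Mbtps1, the protease that makes the first cut in SREBPs, with 7.96, 8.20, 8.59 and 8.20 in Exp, against 8.88, 8.67, 8.55 and 9.06 in Ctrl. Its difference was -0.55 (SE 0.16; limma unadjusted p = 0.00775, adjusted p = 0.999), with Exp 3 above Ctrl 3. The values of this probe set lay close to the filter of 8.45. The other 2 probe sets of Mbtps1 differed by 0.02, in the bright leading one, and by -0.21. Among leading probe sets the smallest p belonged to Erlin2, a membrane protein that binds INSIG in the degradation of HMG-CoA reductase, at -0.12 (SE 0.11), the lysosomal lipase gene Lipa at -0.10 (SE 0.10), the cholesterol exporter gene Abca1 at -0.11 (SE 0.13) and Ggps1, which makes geranylgeranyl diphosphate, at 0.08 (SE 0.10). For all 18 the confidence interval lay within a doubling either way.

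Of 28 other genes of fatty acid and glycerolipid synthesis, 25 were tested, 13 were higher and 12 lower in Exp, and 0 passed in limma. In their leading probe sets 1 had an unadjusted limma p below 0.05, or 4%, against 3.73% of all genes' leading ones. Over all 54 tested probe sets of these genes it was also 1, or 1.85%, against 4.69% of all probe sets. The gene in both counts was Me1, the cytosolic malic enzyme that supplies NADPH for fatty acid synthesis. It had 11.56, 12.31, 12.48 and 12.08 in Exp, against 12.73, 12.92, 12.89 and 12.48 in Ctrl, or -0.65 on the log2 scale (SE 0.20; limma unadjusted p = 0.0101, adjusted p = 0.999). All 4 Exp arrays lay below all 4 Ctrl arrays, although Exp 3 and Ctrl 4 were nearly level, and a second probe set of Me1 differed by -0.10 (SE 0.12). Mid1ip1, an activator of acetyl-CoA carboxylase, had 12.85, 12.65, 12.87 and 12.86 in Exp, against 12.93, 13.17, 12.95 and 13.06 in Ctrl, also without overlap, or -0.22 on the log2 scale (SE 0.10; limma adjusted p = 0.999). Groups without overlap were thus found in 2 of the 25 leading probe sets, or 8%, against 2.25% of all genes' leading ones. Slc25a1, the citrate carrier of mitochondria, differed by -0.22 (SE 0.11), and Dgat1, which makes triglycerides, by 0.15 (SE 0.12).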

How the data were processed

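The deposited values are linear probe set intensity values that share 1 trimmed mean across arrays; the authors' method of summarising and scaling probes was not given in the sources used here. Control probe sets (64) were left out. From the intensity values log2(signal + 16) was taken and quantile normalized, and probe sets with a mean under the 40th percentile (8.45 on this scale, near a signal of 333) were left out. Exp minus Ctrl was tested with limma 3.58.1 (lmFit, eBayes, two-sided) in R 4.3.3, with Benjamini-Hochberg adjustment over all 27022 probe sets at a 5% false discovery rate; the fit was tested on simulated data. No detection calls were used, the pseudocount understates fold changes of dim probe sets, and 4 arrays per group limit the precision. Names came from the platform annotation, updated by identifier through RefSeq (GRCm38.p6), and promoter sequences from RefSeq. All 74 member probe sets matched by symbol.

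Members, lists and tests were chosen with earlier results of these data known. Values per array are given for the 4 sterol and 3 fatty acid genes with the smallest p, all regulators, Stard4 and Lpin1. Up to 4 genes of each further list were to be named. The marker lists departed from this rule. Their genes are named for being tested or under the filter, or for an unadjusted limma p below 0.05. Also outside the rule, Hmgcs1, Fasn and further probe sets were given per array after their values were seen. So were Me1, Mid1ip1, the Mbtps1 probe set and the Sc5d-free means. Figures used matplotlib 3.10.9.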

Additional observations from a re-analysis of the deposited data

Results flagged for a closer look

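Dixon's test for 1 array far from the other 3 of its group was applied to the 67 tested probe sets and 5 mean deviations, 144 tests in all. It singled out 11 values, on 6 of the 8 arrays, and about 7.2 would be met by chance at 1 in 20. Exp 3 stood apart for the Lss probe set 1420014_at at 9.76 (the other Exp arrays 8.90 to 8.94), for the Msmo1 probe set 1459627_at at 8.85 (8.33 to 8.41) and, on the low side, for the Sc5d probe set 1424709_at at 8.21 (9.16 to 9.29). Exp 1 stood apart for Dhcr7 at 13.62 (13.17 to 13.19) and Exp 2 for the Insig2 probe set 1417980_a_at at 11.69 (11.44 to 11.47). Ctrl 2 stood apart for Fdps at 11.56 (12.22 to 12.35), for Hsd17b7 at 14.28 (14.43 to 14.44) and for Scd2 at 16.29 (16.13 to 16.15). Ctrl 4 stood apart for the Mvd probe set 1417303_at at 9.45 (8.89 to 8.92) and the Idi1 probe set 1423804_a_at at 14.58 (14.43 to 14.45), and Ctrl 1 for the Fads1 probe set 1440444_at at 11.47 (10.96 to 11.04).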

How the results depend on the processing

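No member probe set passed the 5% false discovery rate under any of the 18 alternatives that gave this count, and the smallest adjusted p of a member ran from 0.424 (trend and robust options) to 1.00. The number with an unadjusted p below 0.05 in limma, 2, was 1 without a filter and with a filter at the 60th percentile, and 1 to 4 with 1 array left out (4 without Exp 3 or Ctrl 1, 1 without Ctrl 3), while the share over all probe sets ran from 3.90% to 7.19%. The sterol median of 0.06 ran from 0.037 to 0.14 with 1 array left out, highest without Exp 2, and from 0.03 to 0.11 otherwise. The fatty acid median ran from -0.01 to 0.04 and the difference between branches from 0.02 to 0.10. Sc5d kept its direction in all alternatives, at 0.79 to 1.05 with the same probe set (0.96 with the Y-linked Eif2s3y signal as a covariate for sex, adjusted p = 0.908). Of 608 values of single members, 10 moved by more than the pooled SD, among them Sc5d at 0.46 and Srebf2 at 0.08 as means of their probe sets, and 40 changed sign, the largest of a member at 0.155 (Msmo1). The same-numbered arrays did not pair (correlations of their deviations -0.12 to 0.05); with the replicate number as a block 0 member probe sets were called and 3 had an unadjusted p below 0.05. Signals near the filter limit what dim probe sets can show. The causes of these changes were not tested.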
